A study of Mus musculus with 12 samples.

Results

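The comparison described here is what differed from the untreated control when C2i-Myog cells received SB203580 and doxycycline together. It takes 6 of the 12 arrays of the series, 3 labelled SB+Dox and 3 labelled control, and the 21789 of 35557 transcript clusters that carry exactly 1 gene symbol, which stand for 19938 genes. C2i-Myog is a stable derivative of C2C12, an established mouse myoblast line, and carries a cDNA for Flag-tagged mouse Myog that doxycycline (Dox) switches on. Whether the line is 1 clone is not stated. SB203580 (SB) is a kinase inhibitor of the alpha and beta forms of p38 MAP kinase.

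The SB+Dox cells received SB at 10 µM and Dox at 0.2 µg/mL together at the start of differentiation. They were harvested after 48 h in medium with 1% horse serum, insulin at 10 µg/mL and transferrin at 10 µg/mL. The growth medium held 10% serum in all groups. The control cells carry the same cDNA and received neither agent. Their protocol label reads only Control, and the shared protocol text describes the same 48 h of serum withdrawal. The 3 Dox arrays and 3 SB arrays, each given 1 of the agents under the same conditions, are used here for reference levels and for the shared estimate of spread. No group of cells without the cDNA received Dox, so the effect of Dox itself and that of the induced protein cannot be told apart. The labels do not say whether replicates are separate cultures, so the p-values measure the spread between these arrays, which may be technical.

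Myog (myogenin) is a basic helix-loop-helix transcription factor that switches on the genes of terminal muscle differentiation, after Myod1 and Myf5 have fixed the muscle lineage. The p38 kinases are activated in differentiating myoblasts by the upstream kinases Map2k3 and Map2k6, and act on MEF2 factors, on MyoD's partner proteins and on chromatin remodelling at muscle promoters. Cultures of C2C12 cells at this stage hold fused myotubes together with mononucleated cells that have not differentiated. The study's design sets an induced Myog against a blocked p38 pathway, and this comparison asks which genes differ from control when both treatments are given.

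Values are log2 RMA signals, so a difference of 1 is a 2-fold change, and they are given as mean ± SD over the 3 arrays of a group. Levels of different genes on this scale depend on their probes and are not set against each other. Differences are SB+Dox minus control with the standard error (SE) of a limma fit to all 12 arrays, and adjusted p-values are Benjamini-Hochberg values over the 21789 clusters. A gene was called at an adjusted p under 0.05. A gene is described as within 1.5-fold of control where the 95% interval of its difference lies inside that range in both directions.

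The 12 arrays had medians between 5.29 and 5.44. Pairs of control arrays correlated at 0.992 to 0.996 across clusters and pairs of SB+Dox arrays at 0.994 to 0.996. Markers of the labelled cell type were present in both groups: the 11 muscle markers summed on the linear scale to between 18182 and 21686 in the control arrays and between 17847 and 20114 in the SB+Dox arrays. Their mean log2 signal was 10.31 to 10.54 in control and 10.03 to 10.24 in SB+Dox. Of the 11, 4 were called lower (Myog, Myod1, Myl4 and Cdh15) and 0 higher, beside 2.53% and 2.88% of all genes. The 10 endothelial and 9 macrophage markers had 0 calls in either direction, and their group means in control and SB+Dox were at most 5.57.

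Most genes lay within 1.5-fold of control in SB+Dox, and the remaining difference included matrix genes on the lower side and sterol synthesis genes on the higher side. The single genes with high differences included Map2k6 of the p38 pathway and Casq2 of the calcium store. Of 19938 genes, 17600 (88.3%) lay within 1.5-fold of control, and 1078 (5.41%) were called, 574 higher (2.88%) and 504 lower (2.53%). With a minimum change of 1.5-fold, 259 genes were called higher (1.3%) and 276 lower (1.38%). Counted by cluster, the calls were 1146 (5.26%), 618 higher (2.84%) and 528 lower (2.42%), with 281 (1.29%) and 288 (1.32%) at 1.5-fold or more and 19196 (88.1%) within 1.5-fold. An unadjusted p under 0.05 was reached by 3451 clusters. The 3 SB+Dox arrays all lay above the 3 control arrays for 12.2% of genes (12.5% of clusters) and all below for 10.9% (10.7% of clusters). The median difference over all genes was -0.02 and the median SE over clusters was 0.11.

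The number of calls depended on single arrays. The 1146 calls fell to 747 without control replicate 1, to 644 without SB+Dox replicate 2 and to 697 without SB+Dox replicate 3. The 618 higher calls fell to 384 without control replicate 1, 349 without control replicate 3, 323 without SB+Dox replicate 2 and 322 without SB+Dox replicate 3. The 528 lower calls fell to 338 without control replicate 2, 332 without SB+Dox replicate 1 and 321 without SB+Dox replicate 2. Of the 140 called genes among the 202 chosen by the naming rule, 95 passed the threshold in each alternative setting that tested them. There were 22 such settings, and the filters on dim clusters left some of these genes out. Arrays whose omission ended a call named in the following paragraphs are given beside the gene or its list's count. Called members of a list outside the rule were followed through the counts of their list.

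**Figure D1:**
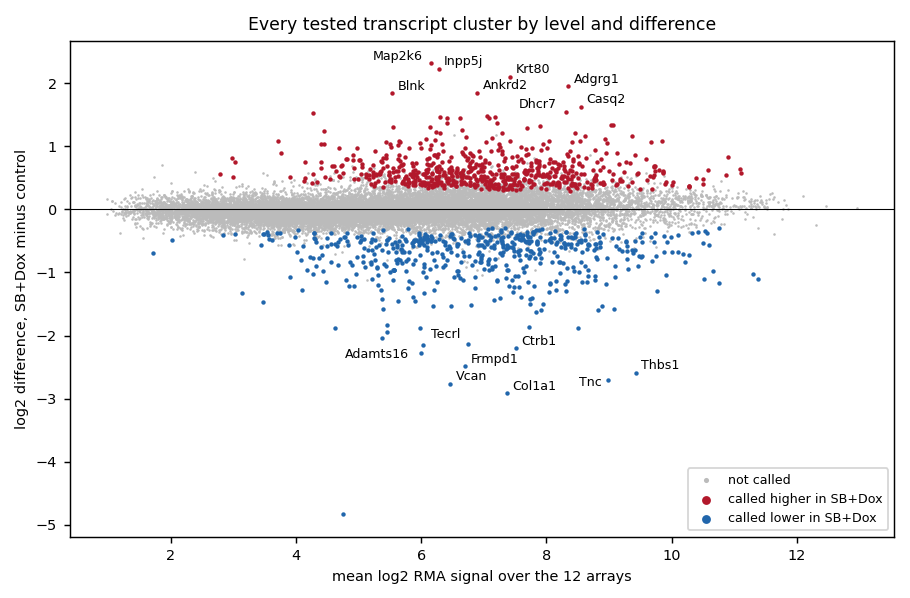
Each point is 1 of the 21789 transcript clusters, with the mean log2 RMA signal over the 12 arrays on the x axis and the log2 difference of SB+Dox from control on the y axis. Red points were called higher and blue points lower at an adjusted p under 0.05, and the 8 highest and 8 lowest genes of the naming rule are labelled. Most points lie near 0, and the called points reach -2.92 for Col1a1 and 2.31 for Map2k6. The unlabelled point near -4.83 is the predicted gene Gm5662.

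Myog itself was lower in SB+Dox. Its signal was 9.66, 10.18 and 9.89 in the control arrays and 8.10, 8.23 and 8.68 in the SB+Dox arrays, so the groups did not overlap and each SB+Dox array was below every control array. The difference was -1.58 (SE 0.25, adjusted p = 0.00162), a level 2.98-fold lower. The mean was 7.70 ± 0.68 with SB alone and 10.37 ± 0.05 with Dox alone. Where this cluster's probes lie on the gene was not used here, so how much of the cDNA's own transcript they read is not known and the value does not check that the cDNA was induced. Myod1, the lineage factor that acts before Myog, was 10.37, 10.50 and 9.99 in control and 9.18, 9.40 and 9.15 in SB+Dox. It was lower by 2.06-fold (difference -1.04, SE 0.15, adjusted p = 0.000693), and its mean with SB alone was 9.73 ± 0.25.

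The RNAs of the p38 kinases themselves differed little from control. Mapk14, which encodes p38 alpha, was 7.21 ± 0.13 in control and 7.68 ± 0.05 in SB+Dox, a difference of 0.47 (SE 0.09, adjusted p = 0.00718). Mapk11, which encodes p38 beta, differed by -0.14 (95% interval -0.32 to 0.05) and Mapk12, which encodes p38 gamma, by 0.02 (95% interval -0.23 to 0.28). Both were within 1.5-fold of control, as was the downstream kinase Mapkapk2 with a difference of -0.19 and an upper interval bound just below 0. RNA levels say nothing of the activity of these kinases, which was not measured.

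Among the 31 measured genes of the p38 pathway list, 5 were called higher and 3 lower, beside 2.88% and 2.53% of all genes. The list's median was 0.03 beside -0.02 over all genes. The highest difference of all named genes was in Map2k6, the kinase that activates p38. Its signal was 5.04, 5.08 and 5.21 in control and 7.52, 7.44 and 7.32 in SB+Dox, with a spread within groups of at most 0.10 (SD). It was 4.97-fold higher (difference 2.31, SE 0.12, adjusted p = 1.03e-07). With SB alone it was 7.40 ± 0.27 and with Dox alone 4.66 ± 0.08. Mknk2, a kinase of the translation factor eIF4E, was 2.23-fold higher at 9.36 ± 0.03 against 8.20 ± 0.06 (adjusted p = 4.49e-06). Mapk14, Dusp16 and Mknk1 made up the other calls on that side, with differences of 0.47, 0.40 and 0.39. On the lower side Zfp36, which destabilises AU-rich mRNAs, differed by -0.60 (adjusted p = 0.00280), and Gadd45b and Hspb1 by -0.68 and -0.64. Hspb1 was not called in the 4 settings without control replicates 1 or 2 or SB+Dox replicates 1 or 2, and Gadd45b in these and without SB+Dox replicate 3. With all arrays, a dimmer second cluster of Hspb1 was also called lower, at -0.65 (adjusted p = 0.0123). The 5 higher calls became 3 without control replicate 2 or SB+Dox replicate 1. The 3 lower calls became 1 without control replicate 1, control replicate 2, SB+Dox replicate 1 or SB+Dox replicate 2.

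The promoters of the highest and lowest named genes that the RefSeq promoter table holds are shown because these genes mark both ends of the comparison. The naming rule gave Vcan and Tnc at the low end and Map2k6 and Adgrg1 at the high end. Each run is the 250 bases before an annotated start, on the transcript's strand, GRCm38.p6, in lower case with matches to a searched motif in capitals. The table holds 3 windows for Map2k6 and 2 each for Tnc and Adgrg1. Shown are the single Vcan window, the first Tnc window, and the windows of the other genes that hold a match.
Vcan, chr13:89742513-89742762, minus strand: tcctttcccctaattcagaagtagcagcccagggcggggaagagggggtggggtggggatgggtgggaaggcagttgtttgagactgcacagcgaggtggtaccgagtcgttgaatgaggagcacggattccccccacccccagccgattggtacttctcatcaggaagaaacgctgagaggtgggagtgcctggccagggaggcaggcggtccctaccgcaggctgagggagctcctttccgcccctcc
Tnc window 1, chr4:64047016-64047265, minus strand: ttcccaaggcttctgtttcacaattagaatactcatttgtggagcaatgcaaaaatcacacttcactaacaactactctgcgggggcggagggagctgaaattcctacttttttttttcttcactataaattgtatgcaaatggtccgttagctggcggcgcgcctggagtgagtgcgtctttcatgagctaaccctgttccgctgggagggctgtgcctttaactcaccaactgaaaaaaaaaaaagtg
Map2k6 window 1, chr11:110398852-110399101, plus strand: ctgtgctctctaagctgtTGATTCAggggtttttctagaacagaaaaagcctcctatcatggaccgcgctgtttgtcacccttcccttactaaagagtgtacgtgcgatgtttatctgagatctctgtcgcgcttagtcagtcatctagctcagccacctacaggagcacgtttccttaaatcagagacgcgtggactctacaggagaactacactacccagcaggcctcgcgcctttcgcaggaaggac
Map2k6 window 3, chr11:110479090-110479339, plus strand: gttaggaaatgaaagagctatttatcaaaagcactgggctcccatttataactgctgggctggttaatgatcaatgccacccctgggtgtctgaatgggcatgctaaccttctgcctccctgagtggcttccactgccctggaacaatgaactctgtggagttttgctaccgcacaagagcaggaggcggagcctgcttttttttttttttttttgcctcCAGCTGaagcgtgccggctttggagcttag
Adgrg1 window 2, chr8:94984149-94984398, plus strand: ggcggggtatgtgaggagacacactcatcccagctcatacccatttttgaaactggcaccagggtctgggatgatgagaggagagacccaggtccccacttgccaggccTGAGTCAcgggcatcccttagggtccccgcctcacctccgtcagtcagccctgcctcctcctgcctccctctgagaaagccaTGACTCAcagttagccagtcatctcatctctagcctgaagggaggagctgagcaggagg

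Motifs were searched on both strands in the 300 bases from 250 before to 50 after each start. They were CAGCTG (an E-box bound by myogenic factors), TGANTCA (AP-1), GGAATG (TEAD), TGATGNAA (a composite of C/EBP and ATF), and by name the MEF2 site and the CArG box of serum response factor. Map2k6 window 1 holds TGATTCA at position -232 and window 3 holds CAGCTG at -30. Adgrg1 window 2 holds TGAGTCA at -141 and TGACTCA at -59. The windows of Vcan and Tnc hold none of these letters. Among the 19177 windows of 15614 tested genes found in the table, 16.3% hold CAGCTG, 6.90% TGANTCA, 13.2% GGAATG, 3.08% TGATGNAA, 1.57% a MEF2 site and 1.41% a CArG box. For the 193 matched genes called at least 1.5-fold lower, with 260 windows, the shares were 23.5% for CAGCTG, 10.0% for TGANTCA, 16.9% for GGAATG, 4.23% for TGATGNAA, 1.15% for the MEF2 site and 3.08% for the CArG box. For the 191 matched genes called at least 1.5-fold higher, with 258 windows, they were 17.8%, 10.1%, 11.2%, 3.10%, 3.88% and 1.94% in the same order. These shares are descriptions of the letters in the windows and were not tested.

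Extracellular matrix genes were among those with the lowest differences (Col1a1, Vcan, Tnc, Thbs1, Aspn and Lox), while most members of the matrix lists were not called. Of 27 measured genes for collagens and the enzymes that process them, 10 were called lower and 1 higher, beside 2.53% and 2.88% of all genes. All 3 SB+Dox arrays lay below all 3 controls for 18, beside 10.9% of all genes. The list's median was -0.35 beside -0.02 over all genes. Of 31 matricellular proteins and proteoglycans, 10 were called lower and 0 higher, with a median of -0.29. The mean signal of the collagen list was 7.99 ± 0.07 in control and 7.44 ± 0.10 in SB+Dox, and that of the matricellular list 7.18 ± 0.05 and 6.57 ± 0.10. The collagen mean was 7.515 ± 0.13 with SB alone and 7.679 ± 0.044 with Dox alone. The matricellular mean was 6.611 ± 0.052 with SB alone and 6.925 ± 0.054 with Dox alone. SB against control, which shares the control arrays, called 12 collagen list and 12 matricellular list genes lower, beside 4.06% of all genes.

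Col1a1, the alpha 1 chain of type I collagen, had the lowest difference of the genes named by the rule. Its signal was 8.62, 9.28 and 9.92 in control and 6.43, 6.23 and 6.40 in SB+Dox. The control arrays spread over more than the SB+Dox arrays did, and the groups did not overlap, as the rule required. The level was 7.55-fold lower (difference -2.92, SE 0.27, adjusted p = 1.97e-05). Its partner chain Col1a2 was 11.25 ± 0.09 in control and 10.28 ± 0.25 in SB+Dox, 1.97-fold lower (adjusted p = 0.000376).

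The other called collagens were Col3a1 (difference -1.29), which makes type III fibrils, the 3 type VI chains Col6a1 (-1.21), Col6a3 (-1.19) and Col6a2 (-0.97), Col12a1 (-0.86), and the type V chains Col5a2 (-0.76) and Col5a1 (-0.50). Lox, the enzyme that starts collagen and elastin crosslinking, was 8.68, 8.78 and 8.59 in control and 6.83, 6.55 and 7.07 in SB+Dox. It was 3.65-fold lower (SE 0.18, adjusted p = 2.46e-05). The single member called higher was Col4a1, a basement membrane collagen chain, with a difference of 0.59 (adjusted p = 0.0270), and that count was 0 without control replicate 1, control replicate 3, SB+Dox replicate 2 or SB+Dox replicate 3. The collagen chaperone Serpinh1 and the crosslinking enzyme Loxl3 were not called and lay within 1.5-fold of control, at -0.29 and -0.33.

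Vcan encodes versican, a large chondroitin sulfate proteoglycan of provisional matrix. Its signal was 7.91, 8.10 and 7.87 in control and 4.91, 5.37 and 5.32 in SB+Dox. The level was 6.78-fold lower (difference -2.76, SE 0.18, adjusted p = 1.17e-06). Tnc, the adhesion-modulating glycoprotein tenascin-C, was 10.44, 10.75 and 10.16 in control and 7.33, 7.94 and 7.95 in SB+Dox. It was 6.54-fold lower (SE 0.21, adjusted p = 4.49e-06).

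Thbs1, the matricellular protein thrombospondin-1, was 10.64, 11.07 and 10.83 in control and 7.40, 8.77 and 8.61 in SB+Dox. SB+Dox replicate 1 lay below the other two, and all 3 were below the controls. The level was 6.01-fold lower (difference -2.59, SE 0.28, adjusted p = 8.53e-05). Aspn, the small proteoglycan asporin, was 3.70-fold lower at 4.12 ± 0.49 against 6.01 ± 0.27 (adjusted p = 0.000186). Postn (-1.54), Islr (-1.41), Ccn2 (-1.22), Bgn (-1.17), Fn1 (-1.11) and Ccn4 (-0.80) were the remaining called members. They encode periostin, meflin, CTGF, biglycan, fibronectin and WISP1.

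The summed linear signal of the 13 measured fibroblast markers was lower in SB+Dox. These markers include Col1a1, Col1a2 and Col3a1 of the collagen list and Lum of the matricellular list, so the sum partly repeats those lists. The part of these markers in the matrix result was not tested. The sum was 5447 to 6572 in the control arrays and 2463 to 3243 in the SB+Dox arrays. It was also below the control range in the Dox arrays, at 2580 to 2801, and in the SB arrays, at 3884 to 5033. Of the 13, 5 were called lower (Col1a1, Pdgfrb, Col3a1, S100a4 and Col1a2) and 0 higher, beside 2.53% and 2.88% of all genes. The other 8 were not called, and 7 of the 13 lay within 1.5-fold of control, beside 88.3% of all genes. Pdgfrb, the PDGF receptor beta, was 8.49 ± 0.44 in control and 7.07 ± 0.09 in SB+Dox. Pdgfra, Thy1, Lum, Dpt, Fap, Pi16 and Tcf21, which also mark fibroblasts, had group means of at most 5.02 in both groups. In RNA from a whole culture, fewer cells of a type and less RNA per cell cannot be told apart.

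Genes that shape and anchor the matrix were called on both sides, and most were not called. Of 23 matrix proteases and inhibitors, 5 were called lower and 3 higher, beside 2.53% and 2.88% of all genes (median -0.07). Timp1, a metalloproteinase inhibitor, was 8.90 ± 0.09 in control and 7.61 ± 0.16 in SB+Dox, 2.45-fold lower (adjusted p = 1.44e-05). Mmp14, the membrane-bound collagenase, was 9.48 ± 0.07 and 8.30 ± 0.05, 2.27-fold lower (adjusted p = 9.85e-05). The 5 lower calls became 3 without control replicate 3, SB+Dox replicate 1 or SB+Dox replicate 2. The 3 higher calls became 0 without control replicate 1, control replicate 3 or SB+Dox replicate 2, and 1 without SB+Dox replicate 3.

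Of 27 basement membrane and integrin genes, 5 were called lower and 1 higher, beside 2.53% and 2.88% of all genes (median -0.10). Itgb6, an integrin beta chain that can release active TGF-beta, was 2.17-fold lower (adjusted p = 0.00526), and Nid2, the basement membrane linker nidogen-2, was 1.95-fold lower (adjusted p = 0.00753). Itga6, a laminin receptor chain, was 8.13, 8.32 and 8.39 in control and 9.12, 9.35 and 9.59 in SB+Dox, 2.11-fold higher (adjusted p = 0.00216). The muscle integrin Itga7 differed by -0.03 and was within 1.5-fold of control. The 5 lower calls became 3 without any single one of control replicates 1, 2 and 3 or SB+Dox replicates 1 and 2.

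**Figure D2:**
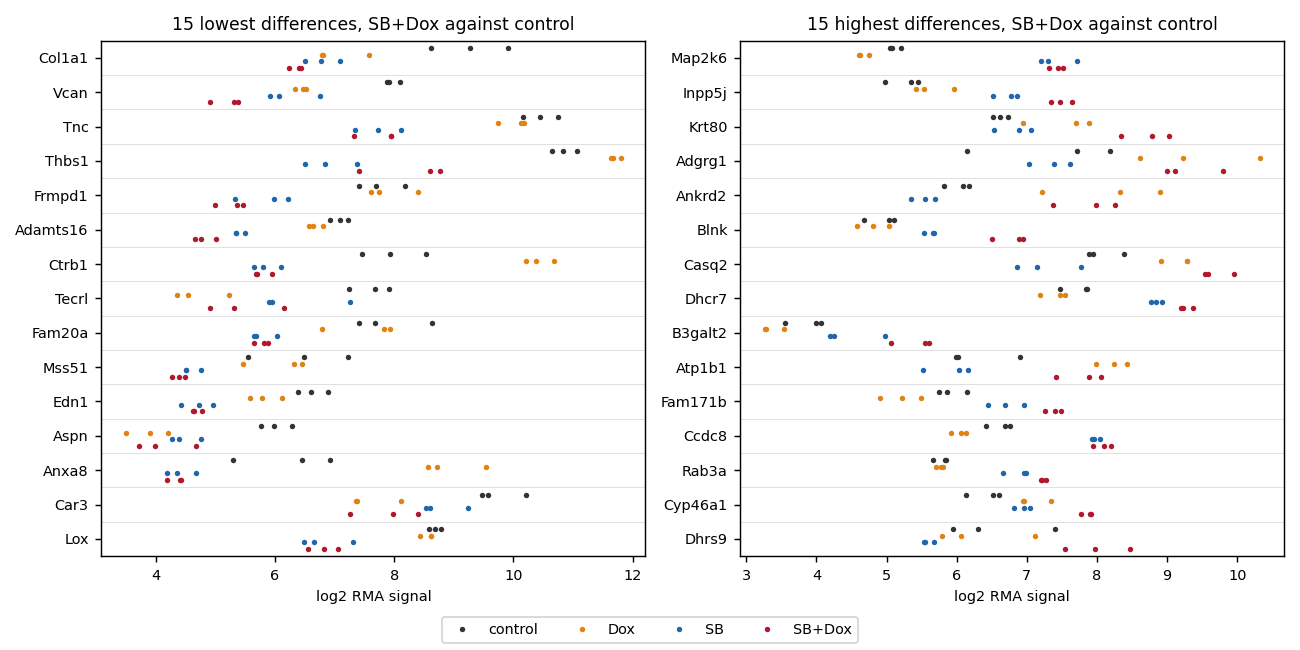
Log2 RMA signal (x axis) of the 15 genes with the lowest and the 15 with the highest difference between SB+Dox and control, named by the rule. Each point is 1 array, coloured by group, with 3 arrays per group and no averaging. The rule required the 3 SB+Dox arrays of each gene to lie beyond the 3 control arrays. The SB and Dox arrays lie on the SB+Dox side for some genes, such as Tnc and Map2k6 with SB. They lie on the control side for others, such as Krt80 with SB.

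The other genes of the low end have varied roles. Frmpd1, a FERM and PDZ domain protein, was 5.60-fold lower at 5.28 ± 0.25 against 7.76 ± 0.39. Adamts16, a secreted metalloproteinase, was 7.22, 7.10 and 6.92 in control and 4.76, 5.01 and 4.65 in SB+Dox, 4.83-fold lower (SE 0.11, adjusted p = 1.03e-07). Its interval, -2.51 to -2.03, was among the narrow ones of these genes. Ctrb1, annotated as the digestive enzyme precursor chymotrypsinogen B1, was 4.59-fold lower, Tecrl, an endoplasmic reticulum protein of heart and muscle, 4.45-fold lower and Fam20a, a secretory pathway pseudokinase, 4.37-fold lower.

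Mss51, a muscle mitochondrial protein, was 4.10-fold lower, and its control arrays ranged from 5.55 to 7.23 beside 4.28 to 4.49 in SB+Dox. Edn1, the peptide endothelin-1, was 6.90, 6.61 and 6.38 in control and 4.62, 4.64 and 4.78 in SB+Dox, 3.86-fold lower (adjusted p = 7.73e-06). Anxa8, a membrane-binding annexin, was 3.68-fold lower and Car3, a carbonic anhydrase abundant in slow muscle, 3.66-fold lower. Outside the naming rule, and singled out after its values were seen, the predicted gene Gm5662 had the lowest difference of all clusters: 2.39 in SB+Dox against 7.22 in control, -4.83 (SE 0.31, adjusted p = 1.17e-06).

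The high end held signalling and muscle genes. Inpp5j, a phosphatase of inositol lipids that opposes PI3-kinase signalling, was 5.45, 5.35 and 4.98 in control and 7.47, 7.65 and 7.34 in SB+Dox, 4.67-fold higher (SE 0.15, adjusted p = 1.77e-06). Krt80, a type II keratin, was 6.62, 6.72 and 6.51 in control and 8.34, 8.78 and 9.03 in SB+Dox, 4.27-fold higher (SE 0.22, adjusted p = 5.62e-05). Blnk, an adaptor of B cell receptor signalling, was 3.58-fold higher at 6.78 ± 0.24 against 4.94 ± 0.22 (adjusted p = 4.72e-06).

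Ankrd2, a stretch-responsive titin-binding ankyrin repeat protein, was 5.82, 6.18 and 6.09 in control and 7.37, 7.98 and 8.26 in SB+Dox, 3.59-fold higher (SE 0.31, adjusted p = 0.00262). Casq2, the calcium-binding protein calsequestrin-2 of the sarcoplasmic reticulum, was 7.95, 8.39 and 7.88 in control and 9.59, 9.54 and 9.95 in SB+Dox, 3.07-fold higher (SE 0.20, adjusted p = 0.000255). Neither gene's groups overlapped, as the rule required. Atp1b1, a sodium pump subunit, was 2.79-fold higher, Rab3a, a GTPase of regulated exocytosis, 2.74-fold higher and Cyp46a1, the cholesterol 24-hydroxylase, 2.73-fold higher. B3galt2, a galactosyltransferase, was 2.89-fold higher, and Fam171b and Ccdc8 were 2.76-fold and 2.75-fold higher.

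2 of the 15 highest genes lost the call when any of several arrays was left out alone. Adgrg1, an adhesion G protein-coupled receptor, was 7.72, 8.19 and 6.15 in control and 9.00, 9.79 and 9.11 in SB+Dox, 3.85-fold higher (SE 0.45, adjusted p = 0.0198). Its call was lost without control replicate 3, the lowest array (adjusted p = 0.0758), and without SB+Dox replicate 2 (adjusted p = 0.0953), and over the 22 settings its adjusted p ran from 0.00182 to 0.0953. Dhrs9, a short-chain dehydrogenase that acts on retinol, was 2.72-fold higher (adjusted p = 0.0270). Its adjusted p was 0.107 without control replicate 1, 0.118 without control replicate 2, 0.0708 without SB+Dox replicate 1 and 0.126 without SB+Dox replicate 3, within a range over all settings of 0.00127 to 0.126.

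Genes of cholesterol and fatty acid synthesis were higher as a group. Of 27 measured, 17 were called higher and 0 lower, beside 2.88% and 2.53% of all genes. All 3 SB+Dox arrays lay above all 3 controls for 25, beside 12.2% of all genes. The list's median was 0.58 beside -0.02 over all genes, and 2 of the 27 lay within 1.5-fold of control, beside 88.3%. The 17 calls became 11 without control replicate 3, the control array with the lowest signal for Dhcr7, Lss and Insig1 alike. The list's mean signal was 8.40 ± 0.15 in control, 8.49 ± 0.17 with Dox, 8.95 ± 0.18 with SB and 9.05 ± 0.13 with SB+Dox.

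The changes covered several steps of both pathways. Dhcr7, which completes cholesterol, was 7.85, 7.86 and 7.48 in control and 9.20, 9.37 and 9.23 in SB+Dox, 2.91-fold higher (SE 0.12, adjusted p = 4.49e-06). Lss, which closes the sterol ring to lanosterol, was 2.58-fold higher (adjusted p = 0.000200). Insig1, a sterol-regulated protein that retains SREBP precursors in the endoplasmic reticulum, was 2.23-fold higher (adjusted p = 0.000430). Fasn, which builds palmitate, was 8.51, 8.46 and 8.28 in control and 9.50, 9.77 and 9.34 in SB+Dox, 2.17-fold higher (adjusted p = 0.000502). No array of either group overlapped the other for these 4 genes.

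In the cholesterol branch the other called genes were Idi1 (difference 0.85), Mvd (0.80), Nsdhl (0.64), Msmo1 (0.62), Mvk (0.57) and Sc5d (0.53), which encode enzymes, and Insig2 (0.60) and Stard4 (0.58), which act in sterol sensing and transport. In the fatty acid branch they were Elovl6 (0.94), Scd1 (0.83), Acaca (0.66), Acly (0.62) and Scd2 (0.57), for elongation, desaturation and the supply of malonyl and acetyl units. The transcription factors that drive these genes were not called: Srebf2 differed by -0.09 (95% interval -0.27 to 0.10) and Srebf1 by 0.28 (95% interval -0.11 to 0.67). Hmgcs1, an early enzyme of the cholesterol branch, differed by 0.32 (adjusted p = 0.428). Acss2, which makes acetyl-CoA from acetate and is not on the list, was 2.22-fold higher (adjusted p = 0.00113).

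**Figure D3:**
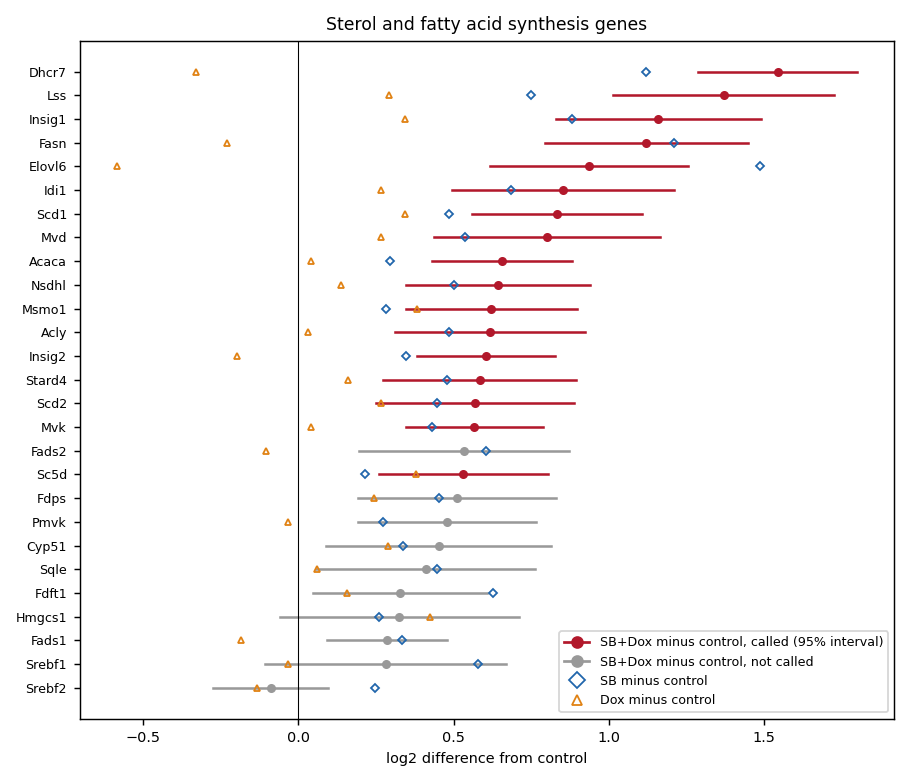
Log2 difference from control (x axis) of the 27 measured sterol and fatty acid synthesis genes. Filled circles with 95% intervals are SB+Dox minus control, red where called and grey where not; open diamonds are SB minus control and open triangles Dox minus control. Called circles run from 0.53 for Sc5d to 1.54 for Dhcr7, and the single circle left of 0 is Srebf2 at -0.09.

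Muscle metabolism genes were mixed. Of 27 measured, 4 were called higher and 1 lower, beside 2.88% and 2.53% of all genes (median 0.12). Mb, the oxygen-binding protein myoglobin, was 8.26, 8.69 and 8.10 in control and 6.57, 7.06 and 7.22 in SB+Dox, 2.64-fold lower (SE 0.18, adjusted p = 0.000389). Its groups did not overlap, and its mean with SB alone was 6.53 ± 0.03. The higher calls were Ppargc1a, Cox6a2, Pygm and Lpl, at 0.81, 0.77, 0.68 and 0.68, and the 4 became 1 without control replicate 1, 0 without control replicate 2, 2 without control replicate 3, 2 without SB+Dox replicate 2 and 0 without SB+Dox replicate 3. Ppargc1a was also not called without SB+Dox replicate 1. With all arrays, a dimmer second cluster of Ppargc1a was also called higher, at 1.09 (adjusted p = 0.0238). Ckm, the muscle creatine kinase, differed by 0.04 (95% interval -0.48 to 0.57) and was within 1.5-fold of control.

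Of 36 nuclear genes for the respiratory chain, 29 lay within 1.5-fold of control, beside 88.3% of all genes. The calls were 3 higher (Uqcrq, Ndufb5 and Sdha), beside 2.88% of all genes, and 0 lower. The 3 calls became 0 without control replicates 1 or 3 or SB+Dox replicates 1, 2 or 3, and 1 without control replicate 2 or Dox replicate 2, each taken alone. Uqcrq was also not called without Dox replicate 3, Ndufb5 without SB replicate 2 and Sdha without Dox replicate 1. The median was 0.20 beside -0.02 over all genes. The 3 SB+Dox arrays all lay above the 3 controls for 23 of the 36, beside 12.2% of all genes. Hadh, an enzyme of mitochondrial fatty acid oxidation outside this list, was 8.05, 8.06 and 8.11 in control and 9.28, 9.18 and 9.37 in SB+Dox, 2.30-fold higher (adjusted p = 1.44e-05).

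Metal-handling genes moved both ways. Mt1 and Mt2, the metallothioneins that bind zinc and copper, were 1.68-fold and 1.96-fold higher (adjusted p = 0.000473 and 0.00622). Slc40a1, the iron exporter ferroportin, was 3.02-fold lower at 7.43 ± 0.41 against 9.03 ± 0.43 (adjusted p = 0.00667). In all, 3 of 15 measured genes of this list were called higher and 2 lower, beside 2.88% and 2.53% of all genes. The 2 became 1 without any single one of control replicates 1, 2 and 3 or SB+Dox replicates 2 and 3.

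Contractile genes were called on both sides, with list medians near that of all genes. Over all genes 5.41% were called and 88.3% lay within 1.5-fold. Of 22 thin filament genes, 2 were called higher and 3 lower, and 10 lay within 1.5-fold of control (median 0.04). The mean signal of this list was 8.72 ± 0.13 in control, 8.13 ± 0.27 with SB and 8.74 ± 0.10 with SB+Dox. Of 26 thick filament genes, 2 were called higher and 3 lower, and 14 lay within 1.5-fold (median 0.01). Of 26 Z-disc and stretch response genes, 3 were called higher and 1 lower, and 16 lay within 1.5-fold (median 0.04). With control arrays shared by both, SB against control called 10 thin filament, 7 thick filament and 10 Z-disc genes lower. In that comparison 6.65% of all genes were called and 4.06% were called lower.

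Tnnc1, the calcium-binding troponin C of slow fibres, was 11.14, 11.39 and 11.12 in control and 11.08, 11.24 and 11.36 in SB+Dox. The groups overlapped throughout, with a difference of 0.01 (95% interval -0.42 to 0.45), while with SB alone the mean was 9.12 ± 0.58. Mylpf, the fast myosin regulatory light chain, differed by 0.02 (95% interval -0.36 to 0.40) and Acta1, skeletal alpha-actin, by 0.21 (95% interval -0.07 to 0.49). Their differences with SB alone were -1.26 and -0.74. Ankrd1, a stretch-responsive titin-binding protein, and Flnc, muscle filamin, differed by 0.06 and 0.04 in SB+Dox, within 1.5-fold, beside -0.98 and -0.79 with SB alone.

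Some contractile genes were called apart from control in SB+Dox. Tmod1, which caps the pointed ends of thin filaments, was 9.12, 8.95 and 8.51 in control and 10.10, 10.20 and 10.27 in SB+Dox, 2.52-fold higher (adjusted p = 0.000133), and a dimmer second cluster of the gene differed by 0.05. Mybpc1, slow myosin-binding protein C, was 2.14-fold lower (adjusted p = 0.00310). Myh3, embryonic myosin heavy chain, was 2.11-fold higher (adjusted p = 0.0267) and Tnnt1, slow troponin T, 2.11-fold lower (adjusted p = 0.0181). Both calls were lost when any of several arrays was left out alone. The adjusted p of Myh3 was 0.0640 without control replicate 1, 0.130 without control replicate 3, 0.0970 without SB+Dox replicate 2 and 0.0961 without SB+Dox replicate 3. That of Tnnt1 was 0.0803 without control replicate 2, 0.0502 without control replicate 3, 0.0776 without SB+Dox replicate 1 and 0.0865 without SB+Dox replicate 2. Over the 22 settings they ran from 0.00510 to 0.130 and from 0.000990 to 0.0865.

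The counts of called contractile genes were as sensitive. The 2 higher thick filament calls became 0 without control replicate 1, control replicate 3, SB+Dox replicate 2 or SB+Dox replicate 3, and the 3 lower ones became 1 without control replicate 2 or SB+Dox replicate 1. The 2 higher thin filament calls became 1 without control replicate 1, control replicate 3 or SB+Dox replicate 3. The 3 lower ones became 0 without control replicate 2 and 1 without control replicate 3, SB+Dox replicate 1 or SB+Dox replicate 2. The 3 higher Z-disc calls became 1 without control replicate 3, SB+Dox replicate 2 or SB+Dox replicate 3, and Ankrd2 passed in each of these settings. The 1 lower Z-disc call became 0 without control replicate 2 or SB+Dox replicates 1, 2 or 3, and 2 without SB replicate 3, each taken alone.

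Calcium handling genes stood on both sides. Of 24 measured, 2 were called higher and 2 lower, beside 2.88% and 2.53% of all genes (median -0.14). Within 1.5-fold lay 10, beside 88.3% of all genes. Beside Casq2, Stim1, the sensor of calcium store depletion, was 6.30, 6.59 and 5.98 in control and 7.04, 7.27 and 7.28 in SB+Dox, 1.88-fold higher (adjusted p = 0.00379). Pvalb, the cytosolic calcium buffer parvalbumin, was 1.78-fold lower (adjusted p = 0.00137). Casq1, the main calsequestrin of fast fibres, differed by -0.90 (adjusted p = 0.0348), and its adjusted p was 0.131 without control replicate 2, 0.142 without control replicate 3, 0.131 without SB+Dox replicate 1, 0.156 without SB+Dox replicate 2 and 0.0519 when SB replicate 2 was left out, in a range over all settings of 0.00302 to 0.156. The 2 lower calls became 1 without control replicate 2, SB replicate 2, SB+Dox replicate 1 or SB+Dox replicate 2. They became 4 with SB replicate 3 left out and 5 with SB+Dox replicate 3 left out. Cacnb1, a subunit of the voltage sensor of excitation-contraction coupling, was within 1.5-fold of control at -0.16, beside -1.52 with SB alone.

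Membrane and fusion genes included members near the control level and members off it. Mymk (myomaker), which makes myoblast membranes ready to fuse, was 10.78, 11.13 and 10.73 in control and 10.81, 11.07 and 11.17 in SB+Dox, with overlapping groups and a difference of 0.14 (95% interval -0.24 to 0.51). Mymx (myomixer), the micropeptide that opens the fusion pore, was 6.94, 7.09 and 7.06 in control and 5.82, 6.05 and 5.96 in SB+Dox, 2.12-fold lower (SE 0.11, adjusted p = 5.39e-05). With SB alone these genes differed from control by -1.62 and -1.43. Cdh15, muscle cadherin, was 1.61-fold lower (adjusted p = 0.00377), and Dock1, an activator of Rac in fusion, had a difference of 0.61 (adjusted p = 0.00426). Of 27 fusion and adhesion genes 18 lay within 1.5-fold, beside 88.3% of all genes. Of the 27, 4 were called lower and 1 higher, beside 2.53% and 2.88% of all genes. The 1 became 2 without control replicate 3.

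Sgca, the alpha-sarcoglycan of the dystrophin complex, was 7.38, 7.80 and 7.44 in control and 5.79, 5.80 and 6.50 in SB+Dox, 2.85-fold lower (SE 0.19, adjusted p = 0.000250). It was the single lower call among 13 measured genes of that complex, beside 2.53% of all genes. SB+Dox replicate 3 lay above the other two and below the controls. Of 16 neuromuscular junction genes 10 lay within 1.5-fold, beside 88.3% of all genes. Chrng, a fetal acetylcholine receptor subunit, was among the 10, at 0.22 beside -0.70 with SB alone. Of the 16, 1 was called higher (Etv5 at 0.73) and 1 lower (Lrp4 at -0.84), beside 2.88% and 2.53% of all genes. Etv5 and Lrp4 each lost the call without control replicate 1 (adjusted p = 0.117 and 0.0649) or control replicate 2 (0.0777 and 0.123). Etv5 also lost it without SB+Dox replicate 3 (0.116), and Lrp4 without SB+Dox replicate 1 (0.126) or SB+Dox replicate 2 (0.0760). Over all settings the adjusted p ran from 0.000650 to 0.117 for Etv5 and from 0.00310 to 0.126 for Lrp4. A dimmer second cluster of Etv5 was also called higher, at 0.98 (adjusted p = 0.0109).

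Of 43 myogenic regulators, 7 were called lower and 1 higher, beside 2.53% and 2.88% of all genes, with a median of -0.09. Within 1.5-fold lay 28, beside 88.3% of all genes. Beside Myog and Myod1, Hes1, a Notch-responsive repressor, was 2.22-fold lower (adjusted p = 0.000202). Hes1 was the single call among 20 Notch pathway genes, near the 5.41% called over all genes. Bhlhe40, a basic helix-loop-helix repressor, was 8.63, 8.83 and 8.47 in control and 7.63, 7.71 and 8.08 in SB+Dox, 1.79-fold lower (adjusted p = 0.00216). Tead4 (-0.70), Snai1 (-0.67) and Eya4 (-0.59) were the other lower calls and Eya1 (0.52) the higher one. The 7 became 4 without control replicate 1, control replicate 2 or SB+Dox replicate 1, and the 1 became 0 without control replicates 2 or 3, SB replicate 2 or SB+Dox replicates 1 or 2, each taken alone. Myf5 was within 1.5-fold of control at 0.26. Among 13 reserve or satellite cell markers, 1 was called higher and 2 lower, beside 2.88% and 2.53% of all genes. Cd34, the higher call, was 5.79 ± 0.46 in control and 6.76 ± 0.12 in SB+Dox, and Cxcr4 and Hes1 were the lower calls. The summed signal of the 13 markers was 973 to 1061 in control and 867 to 893 in SB+Dox.

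Feedback inhibitors of MAP kinases diverged. Dusp8, a phosphatase of p38 and JNK, was 7.62, 7.55 and 7.25 in control and 8.49, 8.36 and 8.67 in SB+Dox, 2.05-fold higher (adjusted p = 0.000365). Dusp14 was 1.63-fold higher (adjusted p = 0.000507) and Spry4, a Sprouty inhibitor of growth factor signalling, 1.78-fold higher (adjusted p = 0.00344). Dusp7, a phosphatase of ERK, was 8.55, 8.83 and 8.21 in control and 7.65, 7.58 and 7.34 in SB+Dox, 2.01-fold lower (adjusted p = 0.00190). In all, 4 of 17 were called higher and 2 lower, beside 2.88% and 2.53% of all genes. The 2 became 1 without control replicates 1 or 2, Dox replicates 1 or 2, SB replicates 1 or 2, or SB+Dox replicates 1 or 2, each taken alone.

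Of 27 immediate early genes, 4 were called lower (Ccn2, Klf10, Junb and Ier3) and 1 higher (Jund, 0.49), with a median of -0.12. The shares over all genes were 2.53% lower and 2.88% higher. The 4 became 1 without control replicate 2 or SB+Dox replicate 1 and 2 without SB+Dox replicate 2. Klf10 was also not called without control replicate 1, Dox replicate 1, SB replicate 2 or SB+Dox replicate 3, and Ier3 without control replicate 3. The 1 became 2 without Dox replicate 1, Dox replicate 3, SB+Dox replicate 1 or SB+Dox replicate 2, and 3 without Dox replicate 2. Ccn2, a YAP- and TGF-beta-responsive matricellular gene, passed in each setting and was 2.33-fold lower (adjusted p = 0.000960). Of 23 cytokines and AU-rich transcripts, 16 lay within 1.5-fold, beside 88.3% of all genes. Hbegf, a membrane-tethered EGF receptor ligand, had a difference of -0.57 (adjusted p = 0.00287).

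TGF-beta signalling genes were called on the lower side alone, 8 of 35 beside 2.53% of all genes, with a median of -0.14. Within 1.5-fold lay 22 of the 35, beside 88.3% of all genes. Tgfbr2, the type II receptor, was 9.02, 8.94 and 9.08 in control and 7.79, 7.81 and 7.99 in SB+Dox, 2.22-fold lower (SE 0.12, adjusted p = 4.89e-05). The groups did not overlap, and each spread by less than the gap between them. Fstl1, a secreted follistatin-like glycoprotein, was 2.22-fold lower (adjusted p = 0.000249) and Ltbp2, a latent TGF-beta binding protein family member, 2.20-fold lower (adjusted p = 0.000220). Grem1 (-0.97, not called without control replicate 3, SB+Dox replicate 2 or SB+Dox replicate 3), Skil (-0.73), the ligand Tgfb1 (-0.60), Inhbb (-0.52) and the effector Smad3 (-0.41) completed the calls. Ltbp1 and Fstl3 lay within 1.5-fold of control at 0.02 and 0.27, beside -0.79 and -0.49 with SB alone.

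In the insulin-like growth factor axis 4 of 17 genes were called lower and 1 higher, beside 2.53% and 2.88% of all genes. The carrier proteins Igfbp2 and Igfbp5 were 2.43-fold lower (adjusted p = 5.66e-05) and 2.03-fold lower (adjusted p = 0.00154), and the receptor substrate Irs1 was 1.66-fold lower (adjusted p = 0.00699). A dimmer second cluster of Irs1 was not called, at -0.40 (adjusted p = 0.228). Igfbp5 was 11.91, 11.85 and 11.79 in control and 10.88, 10.54 and 11.05 in SB+Dox. The higher call, Insr at 0.52, gave a count of 0 without control replicates 2 or 3, Dox replicates 1 or 3 or SB+Dox replicates 2 or 3, and of 2 without SB replicate 3, each taken alone. The growth factor Igf1 itself differed by 0.31 and was within 1.5-fold.

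Guidance and surface receptors had 10 of 32 genes called lower and 1 higher, beside 2.53% and 2.88% of all genes, with a median of -0.02. Cxcr4, the receptor of the chemokine CXCL12, was 7.52, 7.33 and 7.03 in control and 6.23, 6.14 and 5.78 in SB+Dox, 2.37-fold lower (adjusted p = 0.000606). Robo2, a Slit receptor, was 2.10-fold lower (adjusted p = 0.00193). Nrp1 (-0.83), Epha3 (-0.80), Unc5b (-0.78) and Sema7a (-0.68) were also called. Gfra1, a co-receptor of GDNF, was 1.94-fold higher at 8.34 ± 0.13 against 7.38 ± 0.27 (adjusted p = 0.00130). The 10 became 6 without SB+Dox replicate 2.

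Of 18 smooth muscle genes 4 were called lower and 0 higher, beside 2.53% and 2.88% of all genes (median -0.26). Actg2, enteric smooth muscle actin, was 2.63-fold lower (adjusted p = 0.000255) and Cnn2, calponin-2, 2.20-fold lower (adjusted p = 0.000105). Their signals were 8.53 ± 0.34 and 8.92 ± 0.15 in control and 7.14 ± 0.24 and 7.78 ± 0.20 in SB+Dox. The 4 became 2 without control replicate 2, SB+Dox replicate 1 or SB+Dox replicate 2.

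The 2 proliferation lists differed in their calls. Of 32 G2/M genes, which act in mitosis, 0 were called in either direction by limma, beside 5.41% of all genes. Within 1.5-fold of control lay 25, beside 88.3% of all genes, with differences between -0.34 and 0.13 over the list. The list's mean signal was 6.10 ± 0.20 in control and 5.99 ± 0.22 in SB+Dox, with 6.75 ± 0.12 in SB and 5.21 ± 0.07 in Dox. Ccnb2, a mitotic cyclin, was 6.65, 7.01 and 7.06 in control and 7.08, 7.11 and 6.93 in SB+Dox, overlapping, with a difference of 0.13 (95% interval -0.16 to 0.42).

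Of 37 DNA replication genes, 7 were called lower and 0 higher, beside 2.53% and 2.88% of all genes (median -0.28). The SB+Dox arrays all lay below the controls for 13, beside 10.9% of all genes. The mean signal was 6.52 ± 0.10 in control, 6.22 ± 0.14 in SB+Dox, 6.86 ± 0.09 in SB and 5.88 ± 0.11 in Dox. Rfc3, a subunit of the clamp loader, was 6.73, 6.41 and 6.26 in control and 5.60, 5.57 and 5.47 in SB+Dox, 1.89-fold lower (adjusted p = 0.000536). Mcm6, a subunit of the replicative helicase, was 1.53-fold lower (adjusted p = 0.00462). Rrm2, Mcm3, Tk1, Mcm2 and Mcm7 were the other calls, at -0.74, -0.73, -0.51, -0.45 and -0.42. The 7 became 3 without control replicate 2, 3 without control replicate 3 and 2 without SB+Dox replicate 3. Pcna, the sliding clamp, was within 1.5-fold of control at -0.16.

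Amino acid response genes were called on both sides against control. Of 33 targets of ATF4, a transcription factor of amino acid shortage, 2 were called higher and 2 lower, and 15 lay within 1.5-fold (median 0.22), beside 5.41% called and 88.3% within 1.5-fold over all genes. The mean signal was 8.05 ± 0.22 in control, 7.27 ± 0.14 in SB and 8.24 ± 0.17 in SB+Dox. Chac1, a glutathione-degrading enzyme, differed from control by 0.29 and Sesn2, a leucine sensor of the mTORC1 pathway, by -0.04, beside -1.14 and -1.05 with SB alone. Stc2, a secreted glycoprotein, was 1.51-fold higher (adjusted p = 0.00187) and Ddit4, an mTORC1 inhibitor, 1.47-fold lower (adjusted p = 0.00685). The 2 higher calls became 1 without control replicates 1 or 2, SB replicate 2 or SB+Dox replicates 1 or 3, and the 2 lower ones became 1 without control replicate 3 or SB+Dox replicate 2, each taken alone.

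Of 19 cytosolic aminoacyl-tRNA synthetases, which charge tRNAs, 2 were called higher and 0 lower, beside 2.88% and 2.53% of all genes (median 0.19). Within 1.5-fold lay 16, beside 88.3% of all genes. The SB+Dox arrays all lay above the controls for 11, beside 12.2% of all genes. Rars was 9.82, 9.84 and 9.85 in control and 10.26, 10.22 and 10.32 in SB+Dox, 1.35-fold higher (adjusted p = 0.00539), and Wars was 1.75-fold higher (adjusted p = 0.00953). Of 22 endoplasmic reticulum stress genes 18 lay within 1.5-fold of control, as did 12 of 17 heat shock genes and 14 of 18 p53 targets. These counts stand beside 88.3% of all genes. Of the 17 heat shock genes 1 was called higher and 3 lower, beside 2.88% and 2.53% of all genes. The higher call was Hspb8, a small heat shock protein of chaperone-assisted autophagy, 1.90-fold higher (adjusted p = 0.00344). The lower calls were Hspb1, Hspb6 and Hspb7, and the 3 became 0 without control replicate 1. Hspb6 was also not called without SB+Dox replicate 2, and Hspb7 without control replicate 2, SB+Dox replicate 1 or SB+Dox replicate 3. Plk2, a stress-responsive kinase, was 1.66-fold higher (adjusted p = 0.00174) and Fas, a death receptor, 1.69-fold lower (adjusted p = 0.00377).

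**Figure D4:**
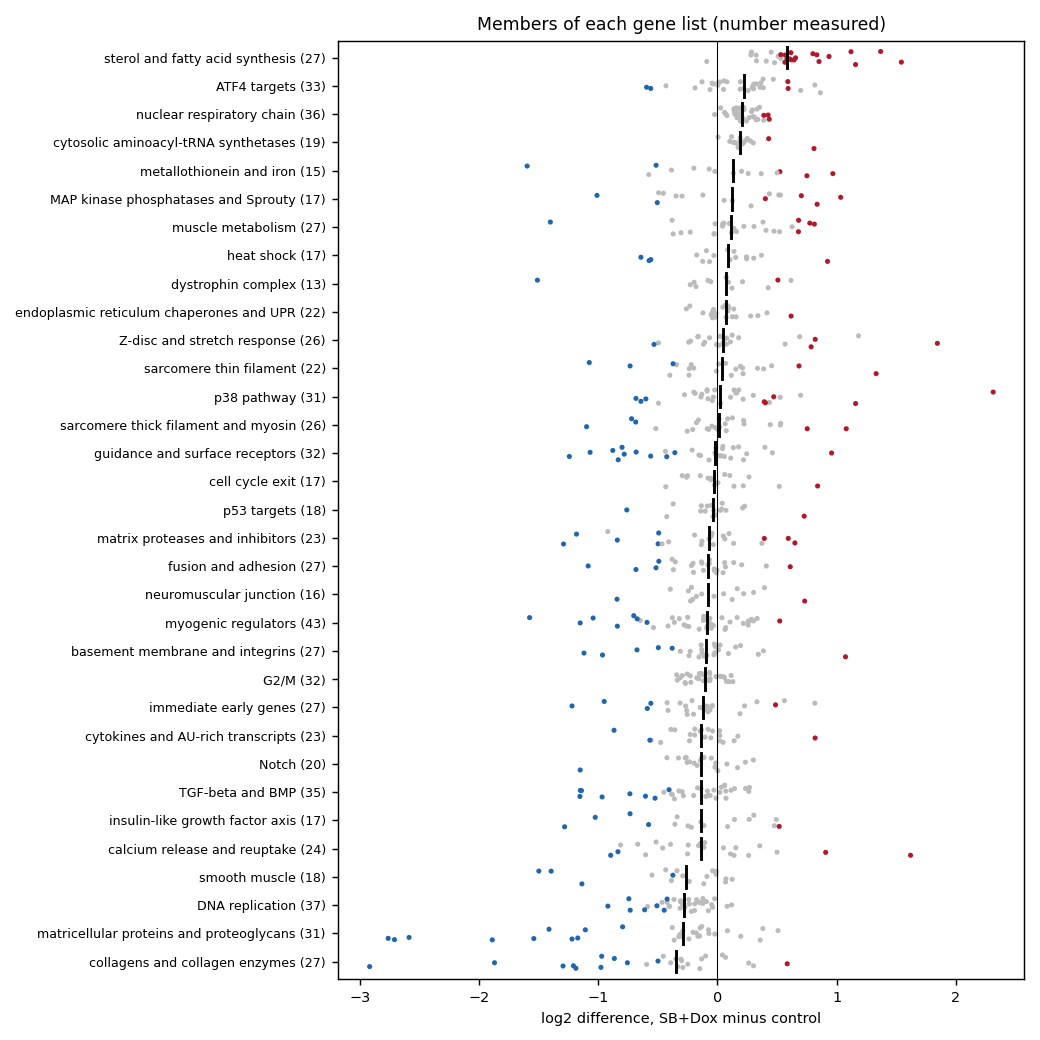
Log2 difference of SB+Dox from control (x axis) for the measured members of the 33 gene lists, ordered by the list median (black bar). Each point is 1 gene, red where called higher, blue where called lower and grey where not called, with vertical scatter added for legibility. Medians run from -0.35 for collagens and collagen enzymes to 0.58 for sterol and fatty acid synthesis, and the G2/M list has 0 coloured points.

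The called genes differed in their level with SB alone. The SB arrays are a separate group and not an earlier state of the SB+Dox cells, which received both agents together. The comparisons set side by side here share arrays: SB against control shares the control arrays, and SB+Dox against SB shares the SB+Dox arrays. A first class was called in the same direction in SB+Dox against SB, where 7.35% of all genes were called, as in SB+Dox against control. Vcan was 7.96 ± 0.12 in control, 6.24 ± 0.45 in SB and 5.20 ± 0.26 in SB+Dox, and SB+Dox differed from SB by -1.04 (adjusted p = 0.00267). Brinp3 was 8.68 ± 0.11, 7.70 ± 0.03 and 7.06 ± 0.11 in these groups, and Srpx2, a secreted sushi repeat protein, 9.35 ± 0.19, 8.69 ± 0.16 and 7.75 ± 0.15. Cdh11, a mesenchymal cadherin, was 6.39 ± 0.35, 5.22 ± 0.12 and 4.56 ± 0.31. On the higher side Inpp5j was 5.26 ± 0.25, 6.72 ± 0.18 and 7.48 ± 0.15, and Krt80 was 6.62 ± 0.11, 6.82 ± 0.27 and 8.72 ± 0.35. Casq2 was below control with SB alone (7.26 ± 0.47 against 8.07 ± 0.28, adjusted p = 0.0254) and above control in SB+Dox at 9.69 ± 0.22.

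A second class lay within 1.5-fold of SB, with the 95% interval of SB+Dox against SB inside that range. Tnc differed by -2.72 with SB alone and by -2.71 with SB+Dox, and its Dox mean, 10.01 ± 0.24, lay near the control mean of 10.45 ± 0.30. Lox differed by -1.86 and -1.87, Edn1 by -1.93 and -1.95, and Cd200, a membrane glycoprotein that restrains myeloid cells, by -1.53 and -1.54. Casp4, an inflammatory caspase, differed by -1.44 and -1.42. Ctrb1 differed by -2.13 and -2.20, while Dox alone gave 10.42 ± 0.25 against a control mean of 7.98 ± 0.54. On the higher side Map2k6 differed by 2.29 with SB and 2.31 with SB+Dox, Ccdc8 by 1.35 and 1.46, Rab3a by 1.10 and 1.45, and Fasn by 1.21 and 1.12. Rab3a was within 1.5-fold of SB but also called higher than SB (adjusted p = 0.0442). SB+Dox and SB arrays of equal number deviated together, and with the number as a block SB+Dox against SB gave 1972 called clusters in the fit of 12 arrays and 2753 in the 6 arrays of these groups, beside 1550 without it. The 12 genes of each of the first and second classes kept their class in both fits.

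Another class was within 1.5-fold of control with SB alone and was called in SB+Dox. Islr, a marker of mesenchymal stromal cells, was 8.08 ± 0.23 in control, 8.19 ± 0.35 in SB, 6.67 ± 0.29 in SB+Dox and 6.08 ± 0.26 in Dox. Col6a1 was 8.46 ± 0.11, 8.21 ± 0.14, 7.25 ± 0.19 and 7.26 ± 0.13 in the same order. For Col6a1 the SB+Dox mean was near the Dox mean. Cxcr4 was 7.29 ± 0.24, 7.32 ± 0.14, 6.05 ± 0.24 and 6.76 ± 0.36, and Tgfbr2 9.02 ± 0.07, 8.88 ± 0.10, 7.86 ± 0.11 and 8.49 ± 0.24. Anxa3, an annexin, was 9.46 ± 0.08, 9.56 ± 0.09, 10.53 ± 0.08 and 9.12 ± 0.10, and Nceh1, a cholesterol ester hydrolase, 5.71 ± 0.14, 5.94 ± 0.31, 6.81 ± 0.20 and 5.84 ± 0.15. For Anxa3 and Nceh1 both single treatments were close to control and SB+Dox was above it.

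**Figure D5:**
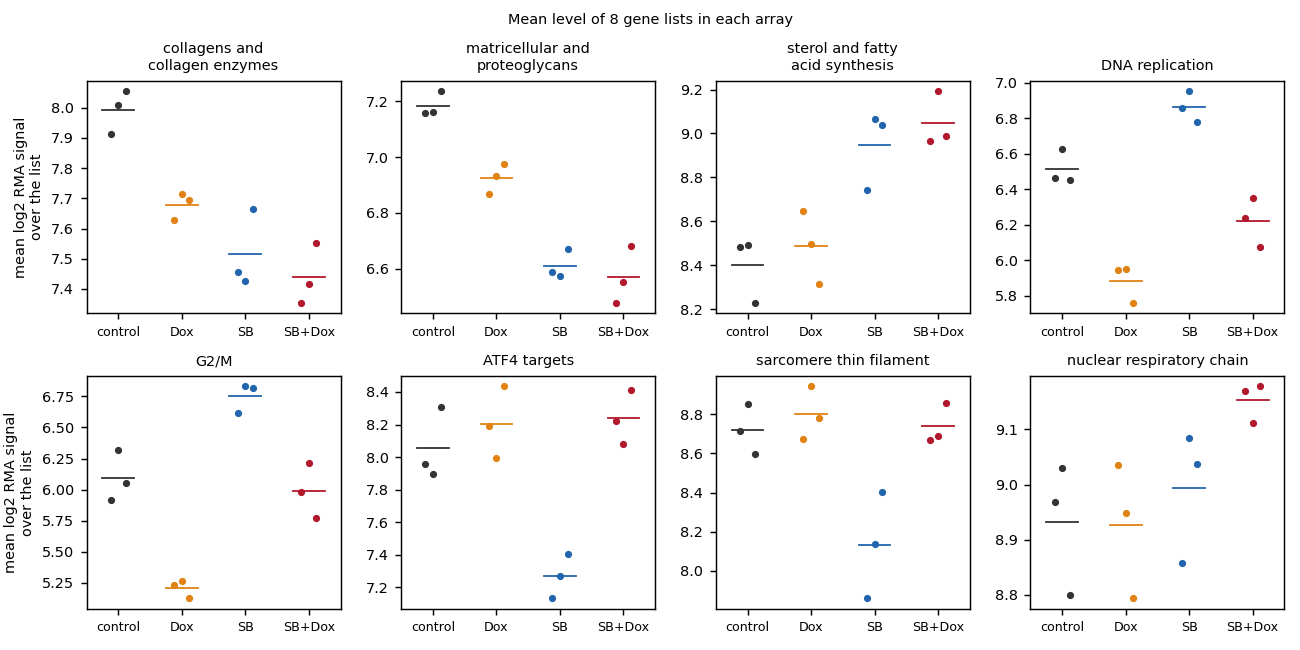
Mean log2 RMA signal over the members of 8 gene lists (y axis, a separate scale for each panel that does not start at 0) in each of the 12 arrays. Points are arrays, coloured by group, and lines are group means. In the 2 matrix panels the 3 SB+Dox arrays lie below the 3 control arrays, in the sterol and respiratory chain panels they lie higher than the controls, and in the G2/M, ATF4 and thin filament panels the groups overlap.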

How the data were processed

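Total RNA from C2i-Myog cells was measured on Affymetrix whole-transcript arrays. The deposited values are log2 RMA signals, made by the authors with RMA in Affymetrix Expression Console per the submitters' processing notes, with versions not given in the sources used here. RMA corrects background, equalises the distribution of signals across arrays and summarises probes, so a shift shared by all genes would be removed. The array platform's annotation gave 1 symbol to 21789 clusters, several to 1621 and none to 12147; 21698 of the first matched the gene table by Entrez identifier. Clusters without exactly 1 symbol were left out. Arrays have no depth, and 3 arrays per group limit the precision.

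All 12 arrays entered 1 limma fit (version 3.58.1, R 4.3.3) that estimated a mean for each group (eBayes without trend, 8 residual and 6.56 prior degrees of freedom), and p-values were adjusted by the Benjamini-Hochberg method. The method was tested on simulated data. Replicate numbers were checked for pairing after removal of group means. SB and SB+Dox arrays of equal number correlated at 0.44, 0.19 and 0.49, so they look paired from the data (the labels do not say so). A block for the number was therefore tried as an alternative. The p-values and classes given for SB+Dox against SB come from the fit without a block. Control and SB+Dox arrays correlated at 0.18, 0.09 and 0.05 and were not taken as paired. Each of the 999 genes with several clusters was described by the one with the highest mean. The gene members, lists and markers were chosen with earlier results of these data known. The naming rule took the 15 highest and 15 lowest called genes whose groups did not overlap, and 7 genes of the Myog and p38 axis. From each list it took up to 4 called members, and up to 3 called with SB alone and within 1.5-fold of control in SB+Dox. Of the 3 classes by SB level it took 6 genes per side for the first 2 and 6 in all for the last. Predicted genes, small RNAs and olfactory and vomeronasal receptors were left out of the rule. Other list members and markers are named beside the counts of their lists, and were chosen after their values were seen, as was Gm5662. Promoter sequences come from RefSeq (GRCm38.p6). Alternatives were leaving out each array, the 6 arrays alone, a replicate block, other normalisation, filters on dim clusters, other variance models, array weights and testing each cluster.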

Additional observations from a re-analysis of the deposited data

How the results depend on the processing

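The precision was limited by 3 arrays per group: the median 95% interval reached 0.24 to either side on the log2 scale. Calls in both directions numbered 1146. Leaving out 1 array gave 644 to 1351 calls in all, 322 to 728 higher and 321 to 623 lower, 220 to 299 higher by at least 1.5-fold, 240 to 306 lower by at least 1.5-fold, and 17916 to 19462 clusters within 1.5-fold, against 618, 528, 281, 288 and 19196 with all arrays. Array weights gave 1935 calls, 1000 higher and 935 lower, and testing every cluster of the array, with or without a symbol, gave 696, 353 and 343. Leaving out the dimmer 50% of clusters left 9157 within 1.5-fold, out of fewer tested clusters. The share within 1.5-fold over all genes, given beside the lists, includes dim clusters. Of the 202 named genes 0 reversed while called, 45 of 140 called genes lost the call in at least 1 of the 22 settings, and 8 that were not called passed in some setting. The replicate numbers gave no clear pairing of control with SB+Dox arrays. Of the 3 SB+Dox arrays, 2 correlated best with the control of their own number, and of the 3 control arrays 1 did so with SB+Dox. With 3 arrays per group this check cannot exclude a pairing. A block for the replicate number gave 1468 calls, 816 higher and 652 lower, and changed the call of 0 named genes. It moved the higher calls from 2 to 4 for thick filament, 3 to 5 for Z-disc, 1 to 2 for dystrophin complex, 1 to 2 for fusion, 5 to 8 for p38 pathway, 1 to 3 for immediate early, 1 to 2 for cell cycle exit and 2 to 8 for ATF4 target genes. It moved the lower calls from 2 to 4 for calcium handling, 7 to 13 for DNA replication, 0 to 1 for cell cycle exit and 1 to 3 for p53 target genes. For SB+Dox against SB the block, added after seeing the data, moved 1550 calls to 1972, or to 2753 in the 6 arrays alone. Over all settings, lower calls ranged from 9 to 15 of the collagen list, 10 to 12 of the matricellular list and 2 to 13 of the DNA replication list, and higher calls from 11 to 21 of the sterol list.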
